A study of Mus musculus with 8 samples.

Results

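The 10 genes followed here in whole lungs of mouse fetuses serve lung surfactant: those of the surfactant proteins SP-A (Sftpa1), SP-B (Sftpb), SP-C (Sftpc) and SP-D (Sftpd), and 6 genes whose products process or assemble surfactant (Napsa, Ctsh, Abca3, Lamp3, Slc34a2 and Lpcat1). They were matched by symbol to the Ensembl identifiers of the count tables, and all 10 were found among the 55385 genes counted. The samples were lungs of C57BL/6 fetuses at E18.5, 4 of a control group and 4 with tracheal occlusion (TO), which holds the fluid secreted by the lung inside its airways. The trachea was tied at E16.5 by a suture passed through the uterine wall, together with one carotid artery and one jugular vein, and the dams received progesterone at E17.5. The labels state neither whether controls were operated on nor which lungs came from the same litter. The study plotted controls 1, 2 and 4 and TO 2, 3 and 4, and the tests given first used these 6 lungs. The values of all 8 lungs are given for the members, and results with all 8 stand beside those of the 6.

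Depth differed in 1 library. Between 22822261 and 35002061 read pairs fell on genes in 7 libraries, and 270078 in TO 1. Levels are CPM, counts of read pairs relative to library size, after TMM scaling for differences in library composition with the factors of all 8 libraries. The 10 genes held 1.10% to 1.75% of the read pairs on genes in the 4 control lungs, and 0.798% in TO 1, 2.19% in TO 2, 1.77% in TO 3 and 1.02% in TO 4. TO 1 also had the highest summed level of skeletal muscle markers (2743 CPM over 8 genes, against 22.6 to 307 in the other libraries) and of thymocyte markers (364 CPM over 7 genes, against 1.98 to 19.9). The part of these tissues in its values was not tested, and the comparison is given with and without TO 1.

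Surfactant is a film of phospholipid and protein that lowers surface tension in the air spaces and keeps them open at the end of a breath. Alveolar type 2 (AT2) cells make it, store it in lamellar bodies and release it, and its genes rise steeply before birth. SP-B and SP-C are small hydrophobic proteins cut from larger precursors on the way to the lamellar body, while SP-A and SP-D are collectins, soluble proteins that bind microbial sugars. The transcription factors NKX2-1, FOXA1, FOXA2 and C/EBP alpha are known to drive these genes in the distal lung. In RNA from whole lung, fewer AT2 cells and less RNA per AT2 cell cannot be told apart.

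The promoters of the genes were examined first, because members that share letters bound by NKX2-1 or FOXA could be set beside their levels. RefSeq sequences of 250 bases before to 50 bases after the start site were at hand for 6 of the 10 genes (Sftpa1, Sftpb, Abca3, Lamp3, Slc34a2 and Lpcat1). Both strands were searched. The motif of NKX2-1 was read as CTCAAG, that of the FOXA factors as TGTTTNC and that of the C/EBP family as TTGCNNAA. The motif of the TEAD factors was read as GGAATG, that of the SREBP factors as TCACNCCAC, and the TATA box by the letters TATAAA. No match of one motif overlapped a match of another. The 3 promoters below are those with a match for NKX2-1 or FOXA, in GRCm38.p6 and 5′ to 3′ on the strand of the gene. Capitals mark the matches to NKX2-1, FOXA and the TATA box.
Sftpb (chr6:72304360-72304659, plus strand): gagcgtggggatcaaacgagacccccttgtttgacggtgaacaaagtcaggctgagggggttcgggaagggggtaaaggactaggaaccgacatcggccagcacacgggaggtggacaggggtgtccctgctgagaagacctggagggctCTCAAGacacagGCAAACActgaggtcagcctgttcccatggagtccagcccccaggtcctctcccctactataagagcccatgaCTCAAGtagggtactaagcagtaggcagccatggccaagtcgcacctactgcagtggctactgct
Sftpa1 (chr14:41131538-41131837, plus strand): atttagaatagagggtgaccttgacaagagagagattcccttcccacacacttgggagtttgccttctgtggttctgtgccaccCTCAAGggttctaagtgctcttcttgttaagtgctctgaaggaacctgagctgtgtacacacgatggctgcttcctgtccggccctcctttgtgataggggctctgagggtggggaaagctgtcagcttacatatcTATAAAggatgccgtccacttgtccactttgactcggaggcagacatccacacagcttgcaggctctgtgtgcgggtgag
Lamp3 (chr16:19706316-19706615, minus strand): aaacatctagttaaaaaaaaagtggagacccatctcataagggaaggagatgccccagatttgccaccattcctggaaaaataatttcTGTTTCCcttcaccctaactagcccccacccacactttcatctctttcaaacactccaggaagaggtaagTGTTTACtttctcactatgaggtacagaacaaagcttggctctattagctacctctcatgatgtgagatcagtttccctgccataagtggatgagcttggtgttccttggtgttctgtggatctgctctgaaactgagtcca

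In the Sftpb promoter CTCAAG stood at -100 to -95 and again at -15 to -10 from the start site, and GCAAACA, the FOXA motif read on the other strand, at -88 to -82. In the Sftpa1 promoter CTCAAG stood at -166 to -161 and TATAAA at -30 to -25. The Lamp3 promoter held TGTTTCC at -162 to -156 and TGTTTAC at -92 to -86. The palindrome TTGCGCAA, a C/EBP match on both strands, stood at -48 to -41 of Slc34a2, and TCACCCCAC at -225 to -217 of Abca3. The Slc34a2 window, chr5:53049103-53049402, belongs to a start site inside the gene, whose first annotated base is 53038081. GGAATG or its complement was found in Abca3, Lamp3 and Slc34a2, and none of the 6 motifs in Lpcat1. Of 32851 mouse promoters of the same length, 15.9% held the NKX2-1 motif, 20.5% the FOXA motif, 10.8% the C/EBP motif, 14.7% the TEAD motif, 1.24% the SREBP motif and 13.6% the TATA box. These matches describe the letters in the window and are not evidence of binding.

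Sftpb encodes SP-B, without which lamellar bodies do not form and the film does not spread. The gene lies on chromosome 6 of GRCm38, at 72304610 to 72314371. It was at 926, 1689, 1103 and 1038 CPM in controls 1 to 4 and at 615, 2229, 1656 and 881 CPM in TO 1 to 4. TO 2 was the highest lung and TO 1 the lowest, TO 4 was below every control, and the groups overlapped. Over the 6 lungs of the study's plots the mean was 1218 ± 412 CPM in controls and 1589 ± 676 CPM in TO (SD, n = 3 each). Sftpc encodes SP-C, a defining product of AT2 cells, and lies on chromosome 14 at 70520949 to 70524081. It was at 7768, 11030.4, 7492 and 5933 CPM in controls 1 to 4. In TO 1 to 4 it was at 4419, 12777.5, 9671 and 5640.3 CPM. The highest and the lowest values were again TO lungs, with control 2 second. The means of the 6 lungs were 8244 ± 2582 CPM and 9363 ± 3579 CPM, which differed by less than either SD.

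**Figure D1:**
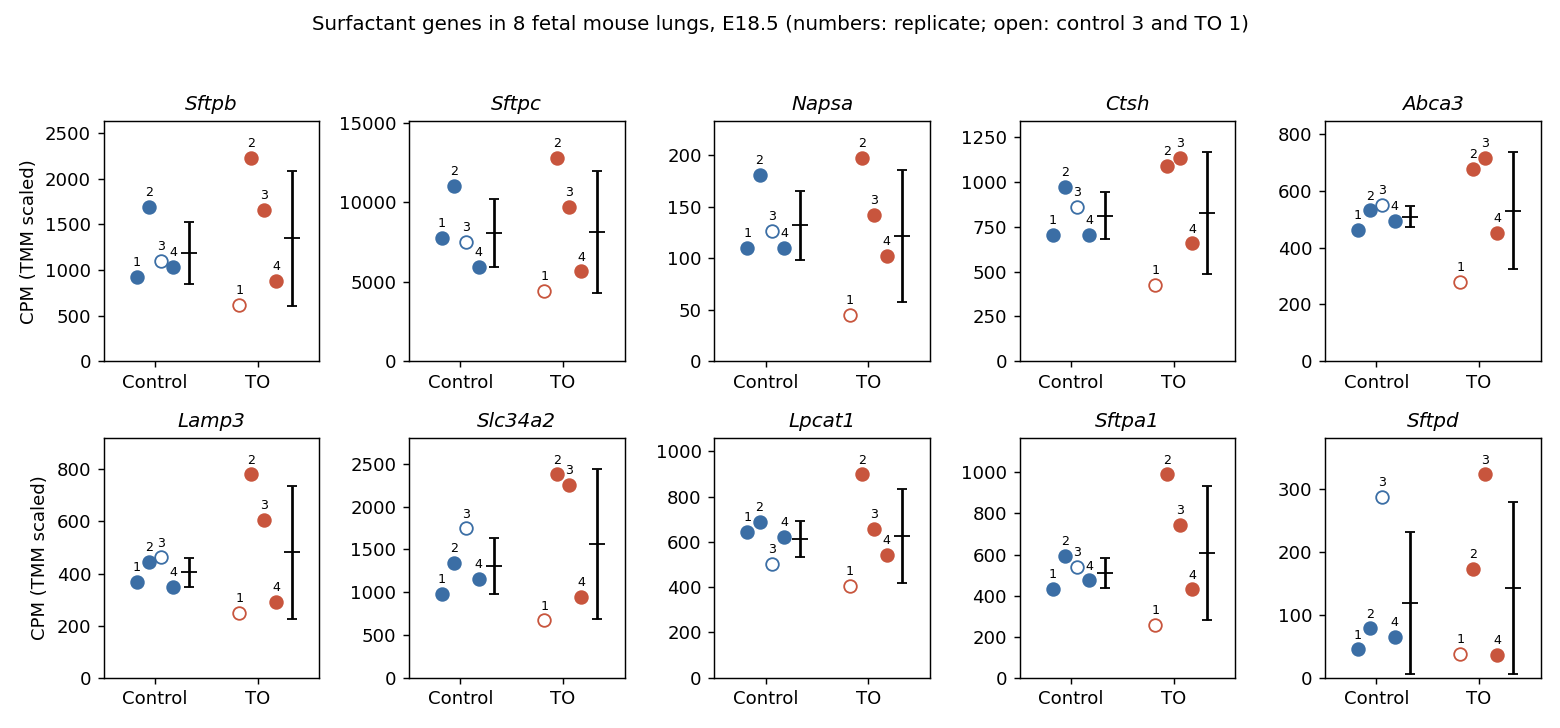
Level of each of the 10 genes (CPM after TMM scaling, linear axes from 0) in the control lungs (blue) and the TO lungs (red), with the replicate number above each point, and the mean and SD of the 4 lungs of a group as a bar at its right. Open symbols are control 3 and TO 1, which the study did not plot. TO 2 or TO 3 is the highest lung for every gene, and TO 1 or TO 4 the lowest.

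The proteases that trim the precursors of SP-B and SP-C were also highest in TO 2 or TO 3. Napsa, on chromosome 7 at 44572380 to 44586862, encodes napsin A, an aspartic protease. Its levels were 110.0, 180.3, 127 and 110.0 CPM in controls 1 to 4 and 44.6, 197, 142 and 102 CPM in TO 1 to 4. Control 2 and TO 2 were the highest, and the groups overlapped. Ctsh, on chromosome 9 at 90054152 to 90076089, encodes the cysteine protease cathepsin H. Its levels were 705, 973, 863 and 704 CPM in controls 1 to 4 and 426, 1088, 1135 and 658 CPM in TO 1 to 4. TO 2 and TO 3 stood above all 4 controls, and TO 1 and TO 4 below all 4. The means of the 6 lungs were 133 ± 40.6 and 147 ± 47.8 CPM for Napsa and 794 ± 155 and 960.2 ± 263 CPM for Ctsh, control first. An antisense gene, Gm15396, shares 502 exon bases with Napsa and was at 0 to 0.372 CPM. Counts were made without regard to strand, and read pairs on exons of both genes are ambiguous and counted for neither. The level of Gm15396 thus does not show how many pairs Napsa lost.

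The lamellar body genes split the TO lungs in the same way. Abca3, on chromosome 17 at 24351950 to 24410201, encodes the transporter that loads phospholipid into lamellar bodies. It was at 463, 531, 549.6 and 495 CPM in controls 1 to 4 and at 278, 678, 716 and 451 CPM in TO 1 to 4. The 4 controls lay close together, with TO 2 and TO 3 above all of them and TO 1 and TO 4 below. D330041H03Rik, on the opposite strand, shares 914 exon bases with Abca3 and was at 5.03 to 17.2 CPM. Read pairs on exons of both were again counted for neither. Lamp3, on chromosome 16 at 19653378 to 19706375, encodes a membrane protein of the lamellar body. It was at 367, 444, 462 and 349.6 CPM in controls 1 to 4 and at 247, 780.5, 605 and 292 CPM in TO 1 to 4. The same split was seen, and TO 2 exceeded TO 4 by a ratio of 2.68. Means over the 6 lungs were 496 ± 34.0 and 615 ± 143 CPM for Abca3 and 387 ± 50.1 and 559 ± 248 CPM for Lamp3.

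Slc34a2, on chromosome 5 at 53038081 to 53071664, encodes the sodium-dependent phosphate carrier of the apical AT2 membrane, which takes up phosphate freed when surfactant phospholipid is broken down. It was at 981, 1343, 1745 and 1151 CPM in controls 1 to 4 and at 669.6, 2377, 2259 and 948 CPM in TO 1 to 4. TO 2 and TO 3 were again above every control and the other two TO lungs below every control. Lpcat1, on chromosome 13 at 73467197 to 73516422, encodes the acyltransferase that remakes the saturated phosphatidylcholine of surfactant. It was at 643, 689, 504 and 622 CPM in controls 1 to 4 and at 405, 898, 659 and 544 CPM in TO 1 to 4. It had the smallest log2 fold change of the members in the 6 lungs, and it was the only one of the 10 for which TO 4 was not the lowest of the 7 deep libraries, control 3 being lower. The means of the 6 lungs were 1158 ± 181 and 1861.5 ± 793 CPM for Slc34a2, and 651 ± 34.4 and 700.4 ± 181 CPM for Lpcat1.

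The collectin genes lie near each other on chromosome 14, Sftpa1 at 41131782 to 41136452 and Sftpd at 41172214 to 41185149 on the opposite strand. Sftpa1 was at 431, 595, 540.5 and 474 CPM in controls 1 to 4 and at 258, 990.2, 746 and 430.2 CPM in TO 1 to 4. It followed the pattern of Lamp3, with TO 2 and TO 3 on top and a mean over the 6 lungs of 499.9 ± 85.0 CPM in controls and 722 ± 281 CPM in TO. Sftpd was at 44.9, 78.2, 286 and 64.4 CPM in controls 1 to 4 and at 37.8, 172, 322 and 35.6 CPM in TO 1 to 4. Here the 2 lungs numbered 3, one of each group, were the highest, and TO 4 the lowest. TO 3 exceeded TO 4 by a ratio of 9.06, where the highest-to-lowest ratio over the 7 deep libraries was 1.59 to 2.68 for the other genes. The mean of Sftpd over the 6 lungs, which leave out control 3, was 62.5 ± 16.7 CPM in controls and 177 ± 143 CPM in TO. Over all 8 lungs it was 118 ± 113 CPM in controls and 142 ± 136 CPM in TO (SD, n = 4 each).

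TO 1 rested on few molecules. It gave 1287 read pairs for Sftpc, 13 for Napsa and 11 for Sftpd, and the exact Poisson 95% interval was 4181 to 4667 CPM for Sftpc, 23.8 to 76.3 CPM for Napsa and 18.9 to 67.6 CPM for Sftpd. For the genes other than Sftpd and Lamp3 the upper end of that interval stayed below the lowest of the other 7 lungs. These intervals cover counting error only.

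TO was compared with control to ask whether surfactant genes differ at the end of gestation after occlusion. In the 6 lungs all 10 genes had a higher fitted level in TO, and none was called. Of these lungs controls 1 and 4 and TO 4 share a specimen name, so the name was not balanced between the groups. Adjusted by the Benjamini-Hochberg method over 21859 genes, edgeR's quasi-likelihood test called at a threshold of 0.1 0% of all genes tested, and the adjusted p of the members was 0.907 to 0.971. The median log2 fold change of the members was 0.34, against -0.0045 for all genes tested, of which 49.3% had a log2 fold change above 0. Sftpd had the highest log2 fold change, 1.49 (SE 0.60, 95% interval 0.14 to 2.84). It was followed by Slc34a2 at 0.68 (SE 0.30, interval 0.010 to 1.35), and by Sftpa1 and Lamp3 at 0.53 each (SE 0.26 and 0.29). Sftpd, with an unadjusted p of 0.034, and Slc34a2, with one of 0.0472, were below 0.05 and higher in TO in the edgeR test, as were 3.07% of all genes. With the replicate number as a block in the same 6 lungs, neither was: Sftpd was at 0.16 (SE 0.25, unadjusted p of 0.522) and Slc34a2 at 0.28 (SE 0.16, unadjusted p of 0.0996).

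The remaining genes had smaller values. The log2 fold change was 0.38 for Sftpb (SE 0.32), 0.31 for Abca3 (SE 0.17), 0.27 for Ctsh (SE 0.21), 0.18 for Sftpc (SE 0.30), 0.14 for Napsa (SE 0.26) and 0.10 for Lpcat1 (SE 0.17). From the counts of each strand, Napsa was at 0.23 and 0.24 (SE 0.24 each), and Abca3 at 0.30 (SE 0.17) and 0.23 (SE 0.19). The 95% interval for Sftpc, -0.49 to 0.85, held lower as well as higher levels in TO, and that for Lpcat1 was -0.28 to 0.49. No member had groups that did not overlap, while 5.06% of all genes tested were higher in every TO lung of the 6 than in every control and 5.82% were lower. DESeq2 in the same 6 lungs called 0.201% of all genes, 44 in number, and none of the members. The spread was wider in TO, since the SD of log2 CPM was larger in the 3 TO lungs for all 10 genes and for 59% of all genes tested.

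With all 8 lungs the values moved towards 0. The log2 fold change was above 0 for 9 of the 10 members and for 46.8% of all genes tested, and the median of the members was 0.13. It was 0.35 for Sftpd (SE 0.69), 0.27 for each of Sftpa1, Slc34a2 and Lamp3 (SE 0.32, 0.36 and 0.31), and -0.030 for Napsa (SE 0.31). The edgeR test with Benjamini-Hochberg adjustment called 0% of 22545 genes, and 2.35% had an unadjusted p below 0.05, no member among them. DESeq2 with all 8 lungs called 7 genes, 0.031%, again without a member. When TO 1 alone was left out the median was 0.34, with all 10 members above 0. The fold change of Sftpd was then 0.58 (SE 0.73), against the 1.49 of the 6 lungs, which leave out control 3 too.

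Single lungs moved these values. Without TO 4, the edgeR test with adjustment over all genes called 144 of 20801 genes (0.692%, 80 of them higher in TO) in the remaining 5 lungs, and 3 of them were members: Sftpd at a log2 fold change of 1.99 (adjusted p = 0.0505), Slc34a2 at 1.005 (adjusted p = 0.0664) and Lamp3 at 0.84 (adjusted p = 0.0917). Without control 4 the test called 52 genes (0.247%), none of them a member. The median of the members was 0.59 without TO 4, 0.55 without control 2 and 0.19 without TO 2, and in the last case only 7 members stayed above 0.

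**Figure D2:**
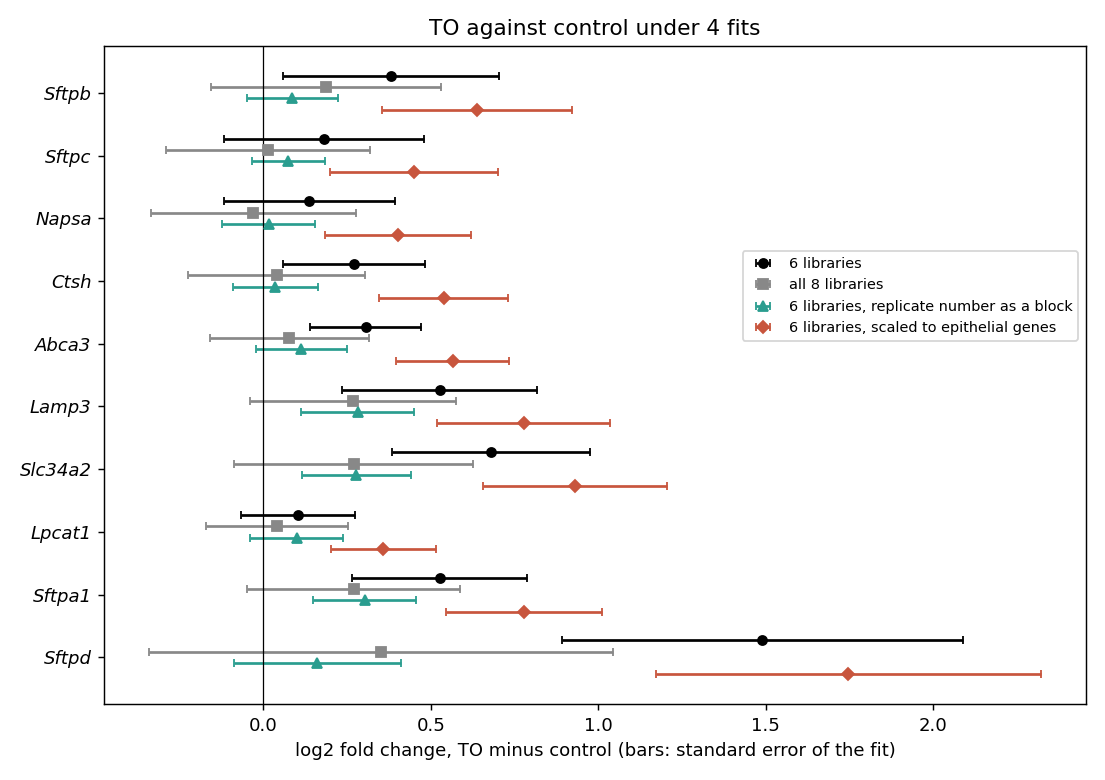
Log2 fold change of TO over control for each gene with the standard error of the fit, in the 6 lungs (black circles), in all 8 lungs (grey squares), in the 6 lungs with the replicate number as a block (green triangles) and in the 6 lungs scaled to general epithelial genes (red diamonds). Sftpd is at 1.49 in the 6 lungs and at 0.35 in all 8, and Napsa and Lpcat1 stay nearest to 0 among the black circles.

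Lungs of the same replicate number were also set against each other. In log2 CPM, TO 2 was above control 2 for 10 of the 10 genes, with a median difference of 0.39, and TO 3 above control 3 for 10, with a median of 0.38. TO 4 was below control 4 for all 10, with a median of -0.17, and TO 1 below control 1 for all 10, with a median of -0.70. The genes as a whole differed less, with medians over all genes tested of -0.41 for number 1, -0.014 for number 2, 0.037 for number 3 and -0.0080 for number 4. The share of all genes tested that was higher in TO was 30.4%, 47.9%, 52.8% and 48.7% for numbers 1 to 4, so most genes had a lower value in TO 1. With its low depth TO 1 had a count for 14476 genes, against 22967 to 25633 in the other libraries. The part of depth in the values of number 1 was not tested. Thus 2 of the 4 TO lungs were higher than the control of their number in every surfactant gene, and 2 were lower in every one. The lower ones, TO 1 and TO 4, share a specimen name with controls 1 and 4, so numbers 1 and 4 are not separate by name. TO 2 and TO 3 have other names. The part of the specimen name in this split was not tested. TO 2 and TO 3 were the 2 highest of the 8 lungs for 5 members (Sftpa1, Abca3, Lamp3, Slc34a2 and Ctsh) and for 3.78% of all genes tested. With the replicate number as a block, edgeR called 219 of the genes in the 6 lungs (1%) and 3 in all 8 (0.0133%), and no member in either. In the 6 lungs that fit rests on the pairs numbered 2 and 4, and the median of the members was 0.11 with all 10 above 0. With all 8 it was 0.026, with 5 of the 10 above 0. When lungs were blocked by specimen name in place of number, edgeR called 0 genes in the 6 lungs, where 1374 had an unadjusted p below 0.05. The median of the members was then 0.10, with 9 of the 10 above 0. Sftpd was at 0.18 (SE 0.34) and Slc34a2 at 0.28 (SE 0.19) in that fit.

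**Figure D3:**
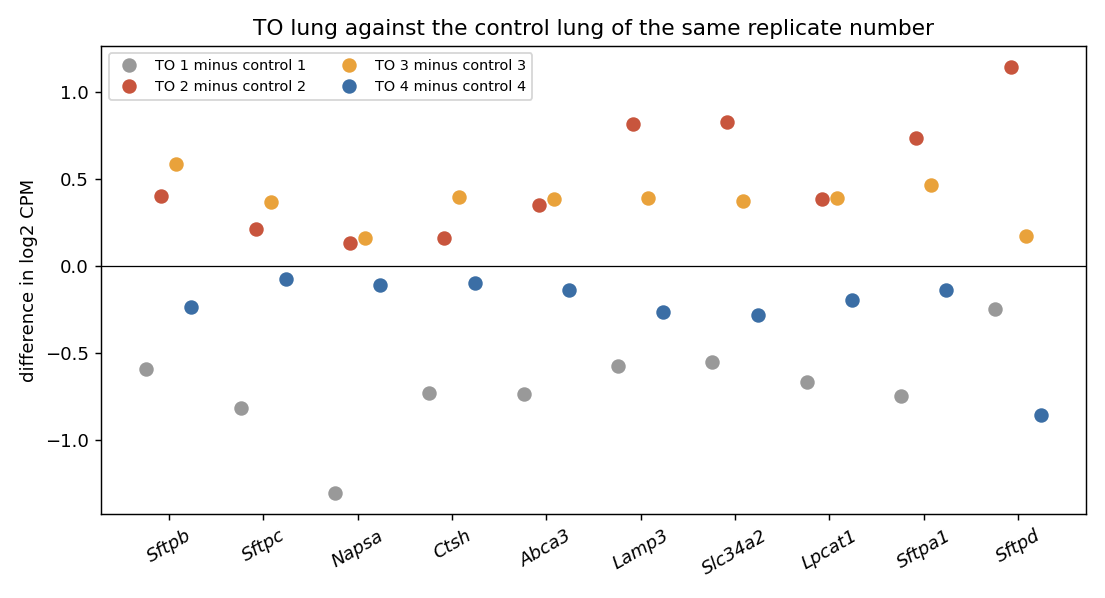
Difference in log2 CPM between each TO lung and the control lung of the same replicate number, for the 10 genes. Numbers 2 and 3 lie above 0 and numbers 1 and 4 below 0 for every gene, with TO 2 over control 2 highest for Sftpd at 1.14 and TO 1 under control 1 lowest for Napsa at -1.30.

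Per length of exon, which allows genes to be compared, Sftpc stood far above the other members at 8333 ± 2568 CPM per kb (SD over the 7 deep libraries). Among protein-coding genes it ranked first in each library but TO 1 and TO 4, where it ranked second. Sftpb followed at 691 ± 257 CPM per kb and was above Slc34a2 (308 ± 118) in every library. Sftpa1 (210.1 ± 71.4), Ctsh (195 ± 43.3), Lpcat1 (141 ± 27.4) and Lamp3 (140.4 ± 50.5 CPM per kb) came next. Among these neighbours Ctsh was above Lpcat1 in every library. Sftpa1 and Ctsh, and Lpcat1 and Lamp3, changed order between libraries. Sftpd (59.3 ± 49.3), Abca3 (59.2 ± 11.1) and Napsa (52.0 ± 14.0) were the lowest on average and changed order between libraries. For Abca3 and Napsa the exon bases shared with another gene are part of the length, though read pairs on them were not counted. Sftpd moved most in rank among protein-coding genes, from place 211 in TO 3 and 279 in control 3 to place 3472 in TO 4.

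**Figure D4:**
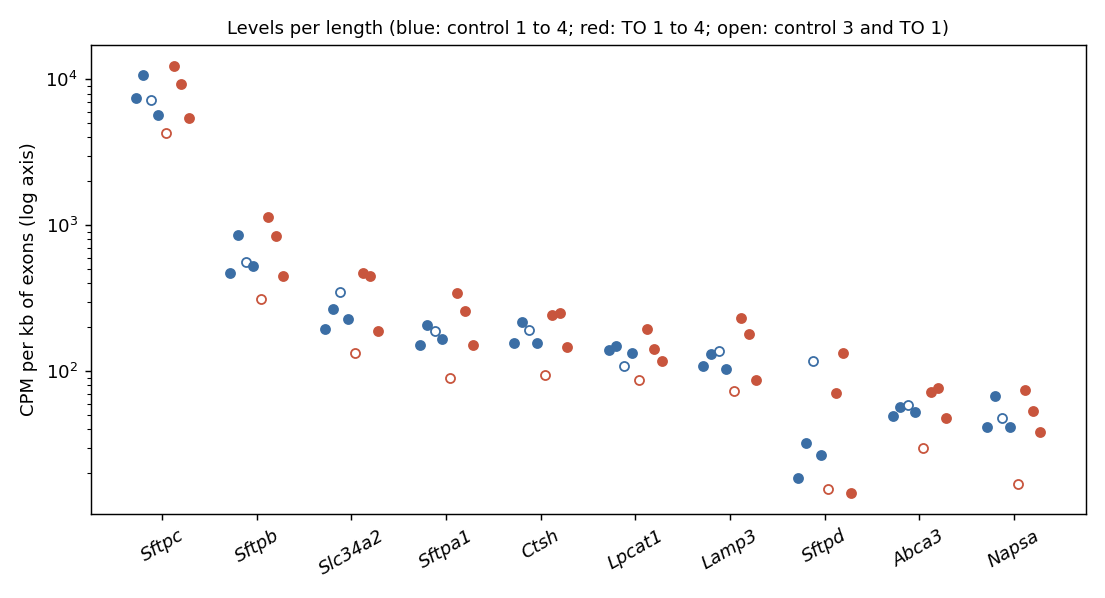
Level per kb of exon (CPM per kb, log axis) of each gene in control 1 to 4 (blue) and TO 1 to 4 (red), ordered by the mean over the 7 deep libraries, with control 3 and TO 1 as open symbols. Sftpc is an order of magnitude above Sftpb, and Sftpd is the gene with the widest range.

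The members resembled one another across lungs to unequal degrees. Pearson's r of log2 CPM with Sftpc, over the 7 deep libraries, was 0.95 for Napsa, 0.927 for Sftpb, 0.880 for Ctsh, 0.870 for Lamp3, 0.853 for Sftpa1, 0.786 for Lpcat1, 0.735 for Abca3, 0.724 for Slc34a2 and 0.511 for Sftpd. Among 10760 genes at 10 CPM or more on average, these took places 16, 28, 77, 96, 114, 282, 408, 441 and 1369 in the order of likeness to Sftpc. The 5 genes most like it were Cog1 (r = 0.983), Wipf1, Fam120b, Zfand2b and Nucb2 (r = 0.969). Sftpd was most like Slc34a2 (r = 0.916) and Abca3 (r = 0.857) and least like Lpcat1 (r = 0.127). These values describe 7 lungs of both groups that share a tissue and a depth class.

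The transcription factors of the distal epithelium, 12 genes, had a narrower range between lungs. Their mean log2 CPM was 7.07 to 7.19 in controls and 6.74, 7.22, 7.17 and 7.04 in TO 1 to 4, the same order of TO lungs as in the surfactant genes. Of them 6 were higher and 6 lower in TO in the 6 lungs, with a median log2 fold change of -0.0099 and none called by edgeR, and with all 8 lungs 4 were higher and the median was -0.031. Nkx2-1, the master factor of lung identity, was at 529 to 748 CPM in controls and 323, 496, 649 and 489 CPM in TO 1 to 4. TO 2, highest for 7 members, was thus below every control for Nkx2-1. Its log2 fold change was -0.20 (SE 0.16), that of Nfib, a factor of lung maturation, was -0.10 (SE 0.12), and that of Etv5, which maintains AT2 identity, was -0.25 (SE 0.15). Others differed in the opposite direction. Cebpa, for C/EBP alpha, was at 107 to 182 CPM in controls and 68.7, 211, 194 and 128 CPM in TO 1 to 4, with a log2 fold change of 0.33 (SE 0.22). Stat3 had one of 0.45 (SE 0.14), with an adjusted p of 0.907 in edgeR. It was higher in each TO lung of the 6 than in each control, as were 5.06% of all genes tested. Control 3, outside the 6, had the highest Stat3 level of all 8 lungs, 244 CPM. With all 8 lungs the groups overlapped and its log2 fold change was 0.14 (SE 0.22).

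AT2 markers outside the 10 genes had the same order of TO lungs. So did some lists below that are not of AT2 cells, while others, such as macrophage markers, had another order. Their mean log2 CPM over 14 genes was 6.40 to 6.79 in controls and 5.72, 7.50, 7.18 and 6.13 in TO 1 to 4. In the 6 lungs 11 of the 14 had a log2 fold change above 0, with a median of 0.57, and none was called. In all 8 lungs 10 were above 0, with a median of 0.45. Cxcl15, the lung chemokine lungkine, was at 419 to 661 CPM in controls and 302, 1408, 945 and 325 CPM in TO 1 to 4. Lgi3 had a log2 fold change of 0.16 (SE 0.19) and Dram1 of 0.10 (SE 0.16).

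Genes of phospholipid synthesis, 14 in number, had a median log2 fold change of 0.22 in the 6 lungs, with 12 above 0 and none called, and of 0.11 with all 8, with 9 above 0. Fasn, the fatty acid synthase, was at 592 to 829.8 CPM in controls and 460.1, 879, 922 and 539.7 CPM in TO 1 to 4, the same order of TO 2 and TO 3 over TO 4 and TO 1. Acly, which makes cytosolic acetyl-CoA, had a value of 0.07 (SE 0.11), and Gpam, which starts glycerolipid synthesis, of 0.34 (SE 0.18). Of 12 genes of lamellar body trafficking and surfactant turnover 11 were tested, and 7 were above 0, with a median of 0.07. The median turned to -0.012 in all 8 lungs, and 5 were above 0. Adgrf5, a receptor of AT2 cells that limits the surfactant pool, was at 0.33 (SE 0.17), Nedd4l, a ubiquitin ligase, at 0.07 (SE 0.14) and Prdx6, a phospholipase of surfactant recycling, at 0.27 (SE 0.19), with none called.

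Relatives of the members in the same gene families set the scale for general lysosomal and collectin genes. Of 26 relatives 23 were tested, 14 were above 0 in the 6 lungs, and the median log2 fold change was 0.15 with none called. With all 8 lungs 10 were above 0, and the median turned to -0.043. Ctsc, another cathepsin, had a log2 fold change of 0.18 (SE 0.17), and the lysosomal membrane genes Lamp1 and Lamp2 of 0.20 and 0.16 (SE 0.12 each). Slc34a1 and Slc34a3, the renal relatives of Slc34a2, were at 0 in 7 of the 8 libraries each.

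AT1 markers, for the flat cells of gas exchange, had a median log2 fold change of -0.0093 in the 6 lungs, 5 of 12 above 0, and of -0.29 in all 8, 1 of 12 above 0. Cav1 was at 0.02 (SE 0.13), Ager at -0.09 (SE 0.30) and Akap5 at -0.34 (SE 0.14). Distal tip progenitor genes had a median of -0.26 in the 6 lungs, 7 of 8 below 0, and of -0.12 in all 8. In the 6 lungs they held Fgfr2 at 0.01 (SE 0.10), Id2 at -0.24 (SE 0.17) and Shh at -0.54 (SE 0.16). None of either list was called.

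General epithelial genes were lower in TO for 14 of 15 genes in the 6 lungs, with a median log2 fold change of -0.26 and none called, and with all 8 lungs the median was -0.39. Cdh1 was at -0.16 (SE 0.11), Krt8 at -0.26 (SE 0.13) and Krt19 at -0.27 (SE 0.14). On the log2 CPM scale the list averaged 6.74 to 6.99 in controls and 6.30, 6.72, 6.61 and 6.52 in TO 1 to 4. The mean of the list was thus lower in every TO lung than in all 4 controls, also in TO 2 and TO 3, which were highest in surfactant genes. It was lower still in TO 1 and TO 4. The margin of TO 2 was small, 6.72 against 6.74 in control 4. For Cdh1, Krt8 and Krt19 taken singly the groups overlapped over the 8 lungs, with Cdh1 at 561 CPM in TO 3 and 551 CPM in control 4. When libraries were scaled to this list, so that differences are relative to epithelial RNA, the median of all genes tested shifted by 0.27, to 0.26, and 80.6% of them were above 0. The members' median was then 0.60, with all 10 above 0. Unadjusted p in edgeR was below 0.05 and higher in TO for 8 members, all but Sftpc and Napsa, and for 13.9% of all genes. After Benjamini-Hochberg adjustment this fit called 0% of all genes, with an adjusted p of 0.319 to 0.420 for the members. With all 8 lungs and this scaling the members' median was 0.44, against 0.29 for all genes tested, and 1 member, Lamp3, had an unadjusted p below 0.05.

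Markers of other cells also differed between the lungs. Of 6 club cell markers all had a log2 fold change above 0 in the 6 lungs (median 0.95, and 0.75 in all 8), and their summed level was 657 to 1082 CPM in controls and 700.5, 1961, 1300 and 733 CPM in TO 1 to 4. None of the 6 was at 0 throughout, and Scgb1a1 reached 336 CPM in TO 2. Of 8 macrophage markers all were above 0 (median 0.79, and 0.59 in all 8), with sums of 155 to 204 CPM in controls and 188 to 305 CPM in TO, and TO 3 the highest. All 10 cell cycle genes were below 0 in the 6 lungs, with a median of -0.72. With all 8 lungs 3 were above 0 and the median was -0.29. Their sum was 481 CPM in control 3 and 512 CPM in TO 3, against 1029 to 1829 CPM in the other lungs. Control 3 and TO 3 were also the highest lungs for Sftpd. Myocardium markers summed to 454 and 727 CPM in controls 2 and 1 and to 2404 to 5566 CPM elsewhere. The part of these cells in the surfactant values was not tested.

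**Figure D5:**
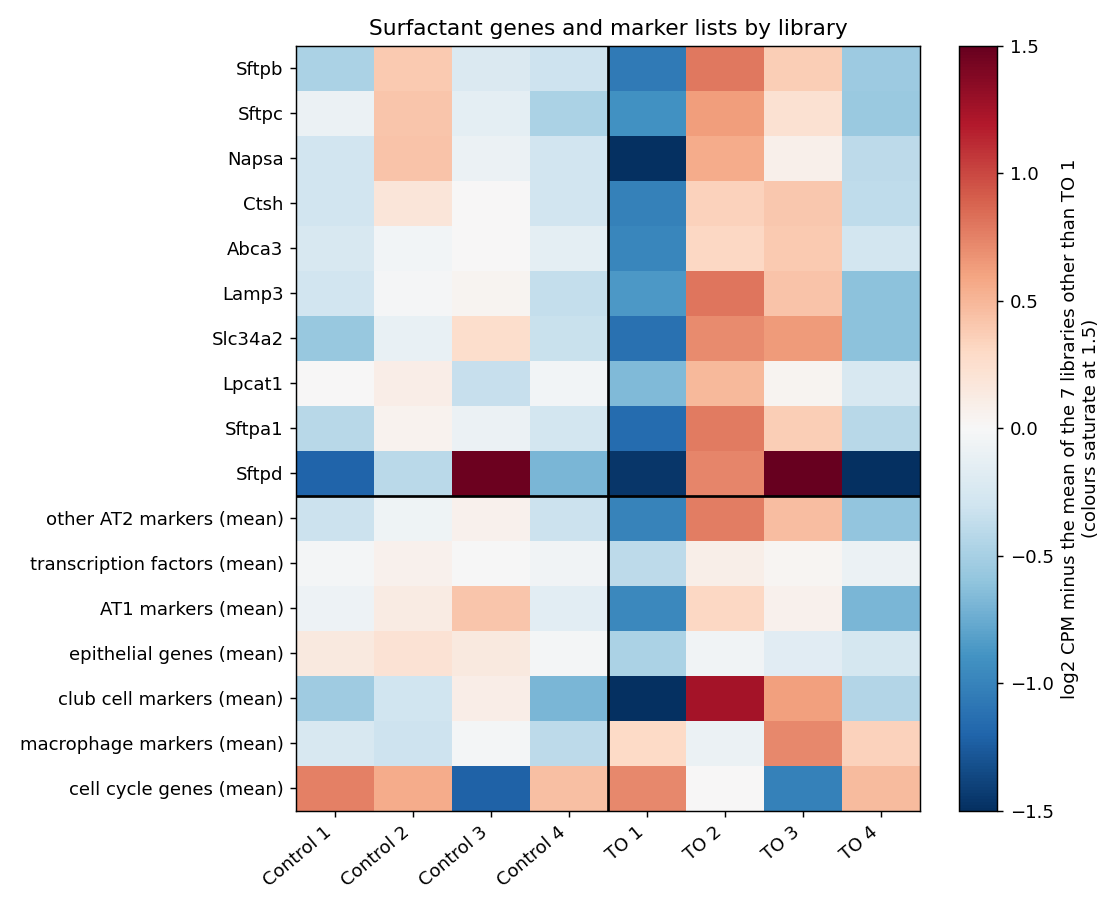
Log2 CPM of each gene, and mean log2 CPM of 7 marker lists, minus the mean of the 7 libraries other than TO 1, in the 4 control lungs (left) and the 4 TO lungs (right), with red for higher and blue for lower. The other AT2 markers share the columns of the surfactant genes (TO 2 at 0.77, TO 4 at -0.60), and the transcription factors follow the same order of TO lungs within a narrower range (-0.089 to 0.087 outside TO 1). The AT1, epithelial and club cell rows follow that order as well, and the macrophage and cell cycle rows do not.

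Further lists were examined as a check of what the samples held. In the 6 lungs the median log2 fold change was -0.012 for endothelial markers (8 genes), -0.037 for fibroblast and smooth muscle markers (8), 0.09 for erythroid markers (7), 0.03 for hepatocyte markers (7), and 1.15 for the 6 of 8 neutrophil markers tested, of which edgeR called none and DESeq2 called 2. It was 1.12 for myocardium, 1.26 for skeletal muscle (7 of 8 tested) and 2.19 for thymocytes (3 of 7 tested), with none called. With all 8 lungs the medians were -0.19 for endothelial, -0.081 for fibroblast and smooth muscle, -0.32 for erythroid, 0.29 for hepatocyte, 1.12 for neutrophil and 0.76 for myocardium markers, and 2.77 for skeletal muscle and 4.42 for thymocytes.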

How the data were processed

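RNA of whole lungs from 4 control and 4 TO fetuses was sequenced by the authors as 150-bp read pairs from NexteraXT libraries. They used STAR and the GRCm38 build for alignment, and deposited raw counts, as numbers of read pairs on each gene, in 3 columns: unstranded, and one for each strand. The submitters' processing notes name STAR and DESeq2, and versions and annotation are not given in the sources used here. The unstranded counts were used. Symbols and coordinates came from GENCODE M21, to which 55144 of 55385 gene IDs matched without the version.

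TO and control were compared in R 4.3.3 with edgeR 4.0.16 (quasi-likelihood test, TMM scaling). A gene entered with 5 reads or more in at least 3 libraries and was called at a Benjamini-Hochberg adjusted p under 0.1. Log2 CPM used a prior count of 2. DESeq2 1.42.0, limma 3.58.1 (voom), other filters and scalings, each strand, blocks and leaving out each library were alternatives. Figures were drawn in Python 3.11.15. Nothing states that lungs of a group were separate litters, so p-values measure the spread between these samples. With 3 against 3 an exact permutation test cannot go below 0.1. The reads carry no molecular identifiers.

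The 10 members and all lists were chosen with earlier results of these data known. From 8 lists the 3 genes of highest mean CPM were named, and 5 genes by likeness to Sftpc. Cebpa, Stat3, Scgb1a1, Slc34a1 and Slc34a3 were named after their values were seen.

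The replicate numbers were treated as pairs from the data alone: over 10761 genes, deviations from the group means correlated between same-numbered lungs at 0.129, 0.298, 0.441 and 0.298 for numbers 1 to 4. TO 1 correlated more with control 4 (0.220) than with control 1. The labels do not say that a number marks a litter, though the specimen names in the deposited files join control and TO lungs in the same way, with numbers 1 and 4 together.

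On simulated data with the depths of the 6 lungs, edgeR recovered 53 of 100 genes changed by a log2 of 1 and 82 of 100 changed by 2, among 20590 genes. It also called 18 unchanged genes. Each gene was drawn independently, so these rates do not cover genes that move together between lungs, as the members did.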

Additional observations from a re-analysis of the deposited data

Results flagged for a closer look

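Among the 20 groups of 4 lungs examined (10 genes, controls and TO), 1 value stood apart from the rest of its group. Sftpd was at 286 CPM in control 3, where the other controls were at 44.9, 64.4 and 78.2 CPM. Its gap to the nearest of them was 0.862 of the range of the group, above Dixon's 95% critical value for 4 samples. Such a value is met by chance in about 1 of 20 groups. Control 3 is outside the 6 lungs tested first, and the log2 fold change of Sftpd was 1.49 without it and TO 1, and 0.35 with both.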

How the results depend on the processing

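The count of genes called by edgeR was 0 in the 6 lungs (1123 at an unadjusted p under 0.05), 40 without a filter on low counts, 44 with DESeq2, 219 with the replicate number as a block, 0 with specimen names as a block, 3 with the replicate block in all 8 lungs and 7 with DESeq2 in all 8, and 0 to 144 when single libraries were left out. The replicate block changed no call of a member. The members' median log2 fold change had a range of -0.093 to 0.59 over those omissions, lowest without TO 2 from all 8 lungs and highest without TO 4 from the 6. It was 0.10 to 0.60 in the other settings with 6 lungs. Signs turned as follows, none with a call. Sftpc was at -0.070 with the block in all 8 lungs and -0.058 with specimen names as a block in the 6. Napsa was at -0.030 in all 8 lungs, -0.12 with the block there and -0.041 with DESeq2 there. With the block in all 8 lungs, Abca3 was at -0.0029, Lpcat1 at -0.0013 and Ctsh at -0.047. Leaving out single libraries gave -0.068 to 0.80 for Sftpa1, -0.17 to 0.70 for Sftpb, -0.29 to 0.45 for Sftpc, -0.40 to 1.99 for Sftpd, -0.090 to 0.49 for Abca3, -0.34 to 0.42 for Napsa, -0.065 to 0.84 for Lamp3, -0.0055 to 1.005 for Slc34a2, -0.18 to 0.26 for Lpcat1 and -0.14 to 0.49 for Ctsh. The cause was not tested. The depth of TO 1 limits what all 8 lungs show, with 11 read pairs of Sftpd.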
